A study of Homo sapiens with 8 samples.

Results

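N4-acetylcytidine (ac4C) peaks that sat at the same place in SiHa cells and in NAT10-knockout SiHa cells are described here. A peak of the SiHa list was called shared when its blocks had at least 1 base in common, on the listed strand, with the blocks of a peak of the knockout list, and that knockout peak was then shared as well. Chromosomes 1 to 22, X and MT were used. By this rule 874 of 12924 SiHa peaks (6.76%) and 876 of 4556 knockout peaks (19.2%) were shared. They formed 955 overlapping pairs and 823 separate groups. The members were chosen by the measured positions of peaks in both lists, so these shares are a description, and no test stands behind them.

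Cytidine in RNA is acetylated by NAT10, which acts on 18S ribosomal RNA, on some transfer RNAs and, as reported from antibody capture, on messenger RNA. The mark is linked to translation and transcript stability. An antibody peak is a stretch of a transcript that is enriched over input RNA. A peak that is also called without NAT10 therefore marks a place where the antibody captured RNA in both populations, and a peak list cannot show whether the captured RNA carried the modification.

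SiHa is a human cervical carcinoma line. In 1 population it was used as it is, and in the other, labelled KONAT10SiHa, NAT10 had been knocked out. For either population 2 input libraries and 2 libraries of antibody-captured RNA were labelled as biological replicates, which makes 8 libraries in 4 groups. The labels do not say how the knockout was made, nor whether it is a clone. The data are 1 list of peaks for each population, with the authors' p-value for each peak, and in the knockout list also the authors' fold enrichment, whose reference is not stated. Neither depth nor replicate values are given, so no difference between the lists could be set against replicate error. Intervals in brackets are exact binomial (Clopper-Pearson) 95% intervals for counts of peaks. NAT10 itself had 1 SiHa peak, which was not shared, and no knockout peak. Of 8 epithelial markers, KRT19 had a shared pair. KRT5, with 3 peaks, and EPCAM, with 1, had SiHa peaks that were not shared. KRT18 had 2 knockout peaks alone, 2 SiHa and 3 knockout rows in the span of KRT8 were not shared and carry no name, and no row lay in the spans of KRT17, SFN and TP63. Of the 787 gene identifiers with a shared peak, 653 (83.0%) received a gene name by position.

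A small part of the shared peaks reached a gene start, where the sequence could be read from RefSeq (build GRCh38.p14). Of shared SiHa peaks whose gene had such a window, from 250 bases before to 50 bases after the start, 9 of 604 reached it (1.49%, 0.684 to 2.81%), against 206 of 8026 other SiHa peaks (2.57%, 2.23 to 2.94%). Among knockout peaks the numbers were 6 of 606 (0.990%) and 64 of 2403 (2.66%). In 6 pairs the bases common to both peaks held at least 30 bases of the window. These stretches are printed because they are the shared peak sequence that could be read, on the gene's strand and from the transcript start where the shared bases reach it. Capitals mark matches to CNNCNNCNNCNN, a cytidine followed by any 2 bases, 4 times in a row, a pattern that has been reported for ac4C.
EPB41 (chr1:28887100-28887129, plus strand): gtcagtgcaggtggaggccccggcggggca
VIM-AS1 (chr10:17229956-17229985, minus strand): ttctcccggaggcgcatgatgtcctcggcc
ATP6V0C (chr16:2513952-2513981, plus strand): gttctgcggtgctggtatttagagcgcagc
PPP4C (chr16:30076008-30076037, plus strand): CGGCGGCGGCGGCGGCGGCGGCGGtcgaaa
PIAS4 (chr19:4007736-4007765, plus strand): ggcgcgggggacgctggtgaccaagatggc
GMFG (chr19:39335999-39336028, minus strand): gcctagaagacagcggaactaagaaaagaa

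The repeat was present in 1 of the 6, in a run of CGG triplets of PPP4C, which encodes the catalytic subunit of protein phosphatase 4. The same search in the first 30 bases of all 35116 RefSeq starts found it in 15.6%. The stretches of PPP4C and GMFG began at bases 15 and 16 from the start, so they run past the bases searched there. Only the gene's strand was searched, and matches could overlap. Cytidine made up 16.7% (GMFG) to 36.7% (VIM-AS1) of the 6 stretches, and the median over all starts was 26.7%. Shared bases at PPP4C numbered 179, with a deposited SiHa p of 3.2e-08 and a knockout fold of 54.4. At EPB41, which encodes a protein of the red cell membrane skeleton, both peaks were the same 181 bases, with a SiHa p of 2.5e-16 and a fold of 60.1. At GMFG the SiHa peak had a p of 0.0066 and the knockout peak a fold of 151. VIM-AS1 lies opposite VIM, the gene of the intermediate filament protein vimentin, and both genes had shared peaks at this place on opposite strands with a SiHa p listed at 0. Of the shared SiHa peaks, 47 (5.38%, 3.98 to 7.09%) had bases in common with a SiHa row of the opposite strand, and the same was true of 6.46% of the others. The strand of a row may thus be that of its gene, and the name of a shared peak is less certain where genes overlap.

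In most pairs the knockout peak was the narrower. All bases of the knockout peak lay in the SiHa peak in 482 of 955 pairs (50.5%, 47.3 to 53.7%), and all bases of the SiHa peak lay in the knockout peak in 123 (12.9%), both counts with the 41 pairs of identical blocks included. The SiHa peak was wider in 684 pairs (71.6%) and the knockout peak in 170 (17.8%). A pair had a median of 151 shared bases (quartiles 91 and 181). These were a median of 43.9% of the SiHa peak and 100% of the knockout peak. Groups were mostly simple: 756 of 823 (91.9%) held 1 peak of each list. When at least 50% of both peaks had to be shared, 407 SiHa peaks and 409 knockout peaks remained.

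**Figure D1:**
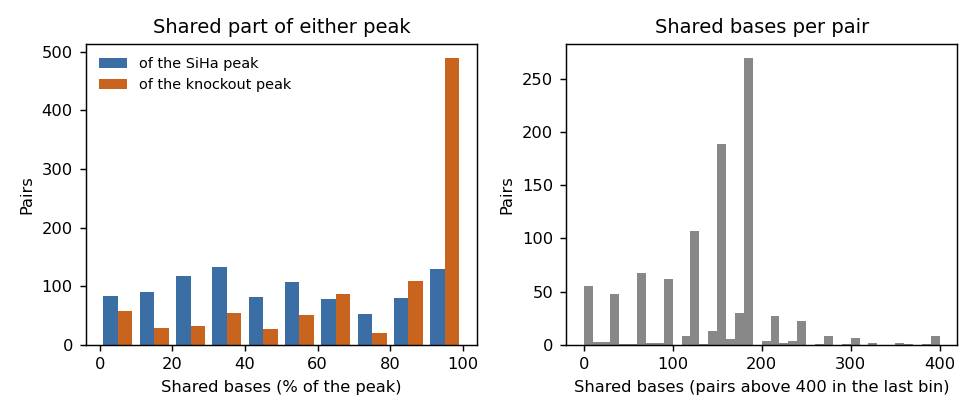
Left, number of pairs by the shared bases as a percentage of the SiHa peak (blue) and of the knockout peak (orange), in bins of 10%. Right, number of pairs by shared bases in bins of 10 bases. Knockout peaks gather at full coverage, SiHa peaks spread over the whole range, and shared bases stand in steps of about 30, from a first column that holds the 53 pairs sharing 1 base.

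Peak boundaries lay on a grid, which bears on what counts as shared. Among 665 pairs with 1 block in each peak, starts differed by a multiple of 30 bases (within 1 base) in 588 (88.4%), and they were the same in 94. Just inside the rule stood 53 pairs with 1 base in common. These are neighbours on the grid, as in CELSR2, an adhesion cadherin, where the knockout peak ended on the first base of the SiHa peak (109274551 on chromosome 1). Others were PRRC2C, CAMSAP2, RTN4 and POLR1A. Just outside stood 49 SiHa peaks within 30 bases of a knockout peak. The closest was in RPL37, which encodes a ribosomal protein, with a gap of 16 bases, and PABPC1, the poly(A)-binding protein, followed with others at 28 bases. When at least 50 shared bases were asked for, 774 SiHa peaks and 788 knockout peaks remained.

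Peaks with smaller deposited p-values were shared more often in either list. In the SiHa list the share rose with every class of −log10 p, from 115 of 3687 peaks below 3 (3.12%, 2.58 to 3.73%) to 103 of 604 above 100 (17.1%, 14.1 to 20.3%), and it was 80 of 309 among peaks with p listed at 0 (25.9%, 21.1 to 31.2%). In the knockout list it went from 12.6% below 3 to 48.1% above 100 (38 of 79 peaks, 36.7 to 59.6%). The median −log10 p was 16.9 in shared SiHa peaks, with quartiles of 5.89 and 76, and 5.60 in the others. With overlap over 50% of both peaks this median was 8.96.

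**Figure D2:**
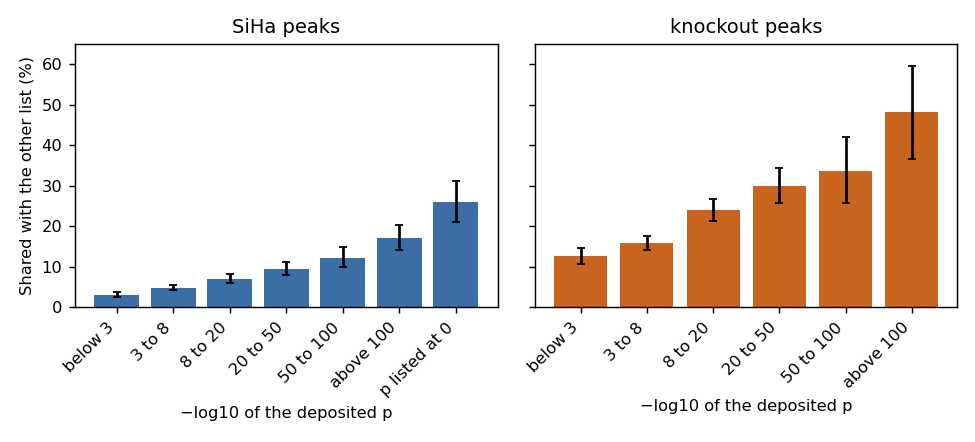
Share of peaks (%) that had bases in common with a peak of the other list, by class of −log10 of the deposited p, for SiHa peaks (left) and knockout peaks (right); bars are shares and whiskers exact binomial 95% intervals. The SiHa share runs from 3.12% to 25.9% and the knockout share from 12.6% to 48.1%.

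Width moved with both. Wide peaks meet another peak more easily, and the share was 3.73% among SiHa peaks of up to 150 bases and 23% among the 261 above 720 bases. Within SiHa peaks of at most 181 bases the share was 3.11% below a −log10 p of 3, 3.92% from 3 to 8, 5.83% (4.25 to 7.77%) from 8 to 20, 5.06% (2.72 to 8.49%) from 20 to 50, and 11.7% (5.99 to 20%) at 50 and above, where it rests on 11 of 94 peaks. Peaks with more than 1 block, which bridge a splice junction, made up 27.1% (24.2 to 30.2%) of shared and 25.1% (24.3 to 25.8%) of other SiHa peaks. In the knockout list they were 18.5% (16.0 to 21.2%) of shared and 34.3% (32.8 to 35.9%) of other peaks. The part that blocks and width had in the strength classes was not tested.

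Among the knockout values, 2110 peaks lay on a series of repeated values, in which folds rose in steps of about 2.6 and −log10 p was low for the fold. Of these, 250 were shared (11.8%, 10.5 to 13.3%), and of the 2446 peaks off the series 626 were shared (25.6%, 23.9 to 27.4%). Shared peaks had a median fold of 28.2 on the series and 7.98 off it, and the other peaks had 20.5 and 7.69. Whether folds on and off the series have the same scale is not known. Of the shared knockout peaks, 128 (14.6%, 12.3 to 17.1%) exceeded 0.05 in the authors' false discovery rate, against 27.5% of the others.

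The p-values of both peaks of a place were set side by side. For each of the 823 groups the highest −log10 p of each list and the highest knockout fold were taken. Spearman's rho was 0.17 between the −log10 p of both lists and −0.27 between SiHa −log10 p and knockout fold. A group was placed on the repeated series when all its knockout peaks were on it. In these 228 groups the values were −0.11 and −0.11. In the other 595 groups, which can also hold peaks on the series, they were 0.21 and −0.16. The sign for the p-values thus differed between them, and the pooled value for the fold was larger in size than either. Expression of the gene may bear on the values of both lists. It was not measured, and its part was not tested. In 173 groups with a SiHa −log10 p above 100 or a p at 0, the median knockout −log10 p was 12 with a median fold of 7.8, and 8.09% lay on the series. In 105 groups with a SiHa value below 3 these medians were 8.01 and 20.5, and 55.2% lay on the series. At either end some places were strong in 1 list and weak in the other: 13 of the former groups had a knockout value below 3, and 22 of the latter had one of 20 or more.

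**Figure D3:**
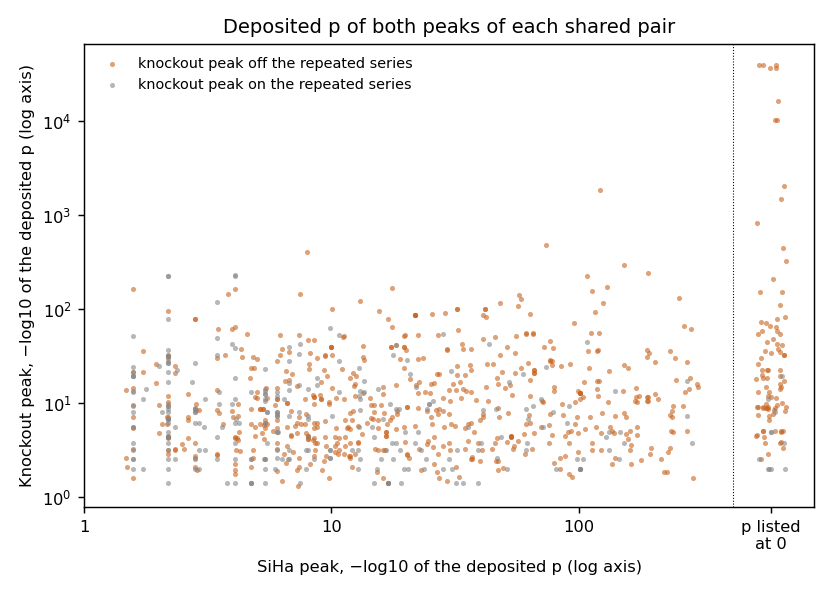
Each point is 1 pair, with −log10 of the deposited p of the SiHa peak on the x axis and of the knockout peak on the y axis, both on log axes; SiHa peaks with p listed at 0 stand right of the dotted line with a random sideways shift. Orange points are off and grey points on the repeated series, and the columns of points at the left are SiHa p-values that recur, such as 0.0066 and 0.027.

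Among the shared SiHa peaks with p listed at 0, the 10 with the highest knockout fold are named here. NOTCH2, a Notch receptor, had a SiHa peak of 720 bases at chromosome 1, 119914758 to 119915477, and a knockout peak of 241 bases wholly inside it, with a deposited p of 1.3e-55 and a fold of 78.6. VCAN encodes versican, a matrix proteoglycan. Its SiHa peak of 810 bases began at base 83536986 of chromosome 5, as did a knockout peak of 301 bases with a fold of 82, which lay on the series. CCND1 encodes cyclin D1, and its 661 SiHa bases held a knockout peak of 151 bases with a fold of 35.9, again on the series. PHF3, a regulator of transcription, had a SiHa peak of 840 bases and a knockout peak of 241 bases inside it with a fold of 25.6. The others of this rank were HBB, TNFRSF10C, CACUL1, CLDN2, AHNAK2 and CLIP2. CLDN2, a claudin of tight junctions, had the widest of these SiHa peaks, 2094 bases, over a knockout peak of 180 bases with a fold of 48.7. This fold lay on the series as well.

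**Figure D4:**
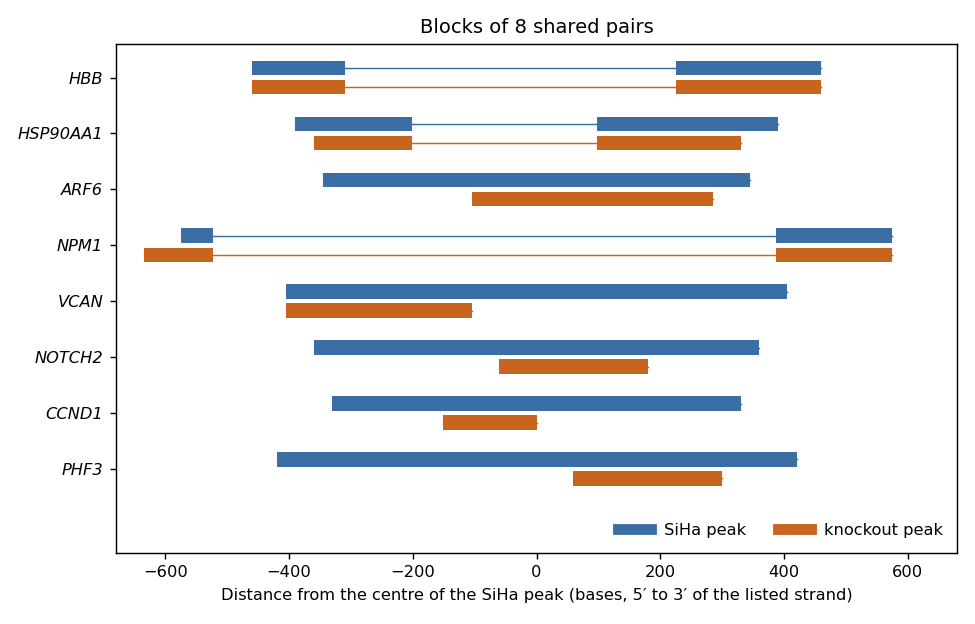
Blocks of the SiHa peak (blue) and the knockout peak (orange) of 8 shared pairs, as distance in bases from the centre of the SiHa peak, 5′ to 3′ along the listed strand; thin lines join the blocks of 1 peak. The blocks of HBB are the same in both lists, the knockout peaks of HSP90AA1, ARF6, VCAN, NOTCH2, CCND1 and PHF3 lie inside the SiHa peak, and that of NPM1 reaches past it at 1 end.

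The 10 smallest knockout p-values among shared peaks belonged to 7 identifiers. They were HBB and IL7R, with folds above 100, and HSP90AA1, HSP90AB1, NPM1, ND2 and an identifier in the span of MALAT1, with folds below 6. The highest −log10 p, 39100, was listed for the identifier in the span of MALAT1, a long nuclear noncoding RNA that shares its position with the antisense TALAM1 and so received no name. Its 3 SiHa rows and 3 knockout rows form 1 group, with folds of 4.94, 4.77 and 3.08. HSP90AA1 encodes an inducible cytosolic HSP90 chaperone. Its only SiHa peak (481 bases, p listed at 0) covered the 391 bases of a knockout peak with a −log10 p of 16400 and a fold of 5.34. For HSP90AB1, the constitutive HSP90, 656 SiHa bases covered 359 knockout bases with a −log10 p of 818 and a fold of 2.36. NPM1, the nucleolar chaperone nucleophosmin, had 240 SiHa bases inside 300 knockout bases with a fold of 3.57. The pseudogenes HSP90AA2P and NPM1P39 each had 1 SiHa and 1 knockout peak, also shared. Whether reads were split between such copies and the genes was not tested. Of all 876 shared knockout peaks, 28 had a fold below 2.

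Among shared knockout peaks, the 10 highest folds lay in 9 genes, led by HBB. The highest fold of the other knockout peaks was 1670. HBB encodes the beta chain of haemoglobin, and both of its peaks had the same blocks in both lists: 384 bases between 5225493 and 5226412 of chromosome 11, with a SiHa p listed at 0 and a fold of 1290, and 355 bases between 5226618 and 5227517, with a SiHa p of 1e-122 and a fold of 1000. HBA2, of the alpha chain, had 3 SiHa peaks with p-values of 0.0066, 8.3e-05 and 0.0066, and all lay under 1 knockout peak of 827 bases with a fold of 887. HBA1 had 2 SiHa peaks, of p 2e-11 and 1.9e-07, under a knockout peak of 537 bases with a fold of 118. HBA1 and HBA2 are nearly identical, so reads could have been split between them. MBP, named for myelin basic protein, had a SiHa p of 8.3e-05 and a fold of 910. LYN, a kinase of blood cells, had a SiHa p of 0.00036 and a fold of 482. APOB, the apolipoprotein of liver-derived lipoproteins, had a SiHa p of 0.0066 and a fold of 320. TENT5C, a poly(A) polymerase, had 3 SiHa peaks with p-values of 0.0066, 0.027 and 8.3e-05 under 2 knockout peaks with folds of 336 and 224. IL7R, the interleukin-7 receptor of lymphocytes, had a SiHa p of 2e-74 and a fold of 134. NSD2, FOXRED1 and TNFRSF10C completed the 10 highest folds of shared peaks, with 259, 249 and 236. The folds of MBP, HBA2, LYN, APOB, NSD2 and HBA1 given here lay on the repeated series. Those of HBB, FOXRED1, TNFRSF10C and IL7R, and the 336 of TENT5C, lay off it, so the ranking mixes folds whose scales may differ.

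Of 51 shared knockout peaks with a fold of 100 or more, 14 had a best SiHa partner with a p of 0.001 or more, and 31 lay on the series. Over all knockout peaks, 194 had such a fold, so 26.3% of them were shared (20.2 to 33.1%). Only 38 of the 194 lay off the series, and 20 of these were shared, so high folds in general lay mostly on the series. Of 18 marker genes of cell types that a carcinoma line should not hold, 5 had a named SiHa peak. All 5 had peaks in both lists, and 4 had a shared pair (80%, 28.4 to 99.5%): HBB, HBA1, HBA2 and APOB. Of these, HBA1 and HBA2 are nearly identical. Over all named genes a shared pair was held by 11.2% of the 5832 with a SiHa peak. The share was 39.8% of the 1638 with peaks in both lists. The peaks of ALB, which encodes albumin, did not overlap. PTPRC and PECAM1 had a knockout peak alone. CD68 had no named peak, although 2 of 4 SiHa rows and 2 of 2 knockout rows in its span were shared. These shared rows came from different identifiers, each with 1 shared SiHa and 1 shared knockout row, so they need not be separate places. In the span of LYZ lay 4 knockout rows but no SiHa row. No row of either list lay in the spans of CD3E, MS4A1, VWF, DCN and COL1A1, and HBG1, HBG2 and APOA1 had no named peak. Shared pairs outside these 18 genes included those of LYN of blood cells, IL7R of lymphocytes and SERPINA1 of liver. The part that RNA of other cells had in these pairs was not tested.

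Identical blocks were found for 41 pairs (4.29%). The widest was a row of 923 bases at chromosome 21, 8437629 to 8438551, inside the RefSeq spans of RNA18SN1 and RNA45SN1, which hold a copy of 18S ribosomal RNA and its precursor. The SiHa p was 2.5e-64, the knockout p 1.3e-88 and the knockout fold 153. The row is listed on the minus strand, the strand of the RefSeq spans is not in the tables used here, and ribosomal genes have near-identical copies, so its source is uncertain. AHNAK had the same 241 bases in both lists, with a SiHa p of 1e-191, a knockout p of 1e-241 and a fold of 10.8. TPM3, a tropomyosin of the actin filament, shared 181 bases with a fold of 4.22, and ANP32A, a nuclear phosphoprotein, 181 bases with a fold of 1.65. The small GTPase RAB10 had a peak of 3 blocks and 179 bases across its splice junctions that was the same in both lists, with a SiHa p of 6.3e-35 and a fold of 1.93.

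Genes seldom had more than 1 shared peak: 711 identifiers had 1 shared SiHa peak, 58 had 2, 8 had 3, 2 had 4 and 3 had 5. Both peaks of a pair carried the same identifier in 909 of 955 pairs. Of 1971 identifiers with peaks in both lists, 778 (39.5%, 37.3 to 41.7%) had such a pair. Of these, 259 had no SiHa peak but the shared one, and 499 had further SiHa peaks that were not shared.

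AHNAK, a giant scaffold protein beneath the plasma membrane, had 5 shared of 17 SiHa peaks, and all of its 6 knockout peaks were shared. They lay between 62519264 and 62529221 of chromosome 11, with folds of 3.33 to 23.6 off the series. In 1 of these pairs a single base was common. Its paralogue AHNAK2 had 3 shared of 25 SiHa peaks and 6 shared of 6 knockout peaks, with folds from 1.58 to 47.4. A SiHa peak of 1441 bases there covered 4 of the knockout peaks at least in part.

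FN1, which encodes fibronectin, had 5 shared of 11 SiHa peaks. Their p-values, 1.9e-07, 1.6e-15, 1.9e-05, 3.2e-14 and 0.0066, were weaker than those of AHNAK, and all 4 shared knockout peaks, with folds of 17.9 to 162, lay on the series. PHF3 had 4 shared of 9 SiHa peaks, with folds of 3.2 to 25.6 off the series. KDM5A, a histone H3 demethylase, had 3 shared of 4 SiHa peaks, and its knockout folds were 10.3, 1.58 and 6.15. VCAN had 3 shared of 15 SiHa peaks, of 810, 1140 and 1289 bases, with folds of 82.0, 17.9 and 23.1. SERPINA1, the liver-secreted inhibitor alpha-1-antitrypsin, had 3 shared of 4, with folds of 38.5, 6.41 and 6.84. An identifier in the span of TUG1, a long noncoding RNA, had 5 shared of 8 SiHa peaks. Another identifier lay in the same span, so it was not named.

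All 4 mitochondrial knockout peaks were shared, and they met 3 of the 18 mitochondrial SiHa peaks (16.7%, 3.58 to 41.4%). Over all chromosomes 19.2% of knockout peaks and 6.76% of SiHa peaks were shared. All 3 of these mitochondrial SiHa peaks had p listed at 0 and were wide. Among all SiHa peaks the share was 25.9% for those with p listed at 0 and 23% for those above 720 bases. ND1 and ND2, subunits of respiratory complex I, had 926 and 953 bases, and COX1, of complex IV, had 1038 bases. The knockout peaks inside were of 149 to 209 bases. Their folds were low: 1.99 and 1.3 in ND1, 2.45 in ND2 and 1.2 in COX1, with −log10 p-values of 53.7, 153, 1470 and 152. The other mitochondrial SiHa peaks met none.

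By function, the shared pairs were spread over many gene classes. Of 5832 named genes with a SiHa peak, 652 (11.2%) held both peaks of a pair. They were 39.8% of the 1638 named genes with peaks in both lists. The lists below were written with earlier results of these data in view and take genes by the start of their symbol, so their counts include some genes of other roles, are read beside that background and were not tested. Shares of 5% to 30% were seen in the lists with at least 10 genes with a SiHa peak.

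**Figure D5:**
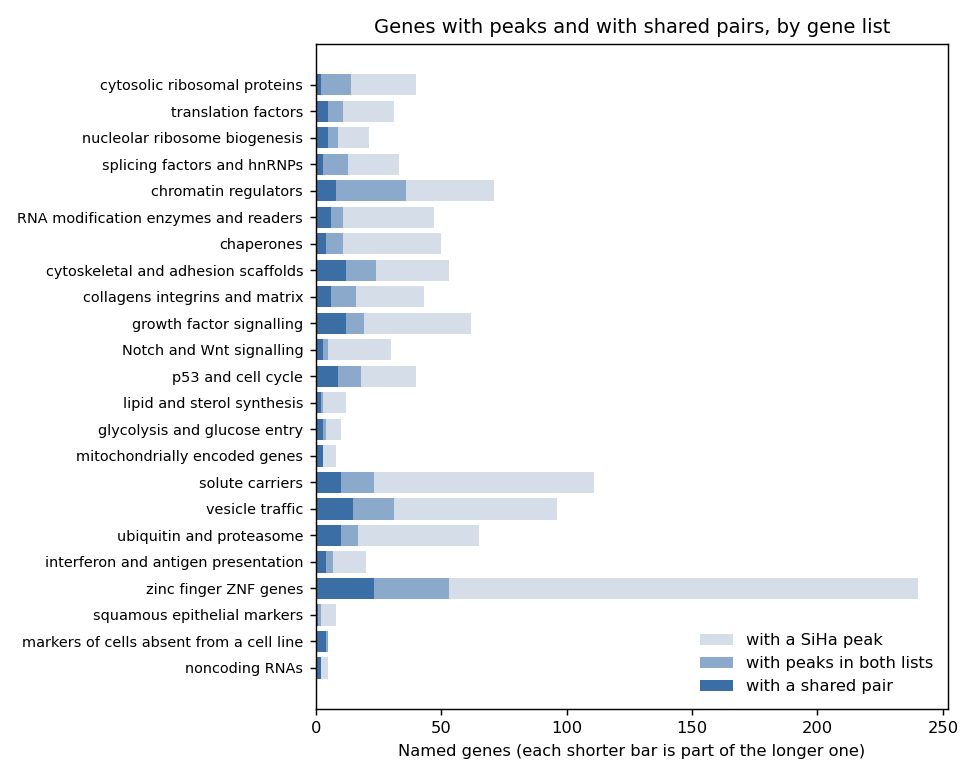
Number of named genes in each list with a SiHa peak (light), with peaks in both lists (medium) and with a shared pair (dark); each darker bar is part of the lighter one. Zinc finger genes, taken by symbol, have the most SiHa peak genes (240) and the most shared ones (23), and ribosomal proteins have 2 of 40.

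In translation, 2 of 40 ribosomal protein genes with a SiHa peak had a shared pair (5%, 0.611 to 16.9%), RPL38 and RPS7. They were 14.3% of the 14 with peaks in both lists. Among translation factors 5 of 31 had a shared pair. EEF2, the elongation factor that moves the ribosome along, had a fold of 1.92 under a SiHa p listed at 0, and EIF5B, which joins the ribosomal subunits, had 2 shared peaks, the stronger with 631 and 181 bases and a fold of 5.17. In nucleolar ribosome biogenesis 5 of 21 genes did, among them NPM1 and NCL, nucleolin, with a fold of 7.80, and the helicase DDX21, where 31 bases were common.

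In RNA processing, 3 of 33 splicing factor and hnRNP genes had a pair: HNRNPF (fold 11.1), PRPF38B (3.04, over 31 shared bases) and SON (5.46). Of the genes listed for RNA modification 6 of 47 had one. ADAR, which deaminates adenosine in double-stranded RNA, had a SiHa peak of 1139 bases that held a knockout peak of 300 bases with a fold of 3.49, and ZC3H13, of the m6A writer complex, had a fold of 1.73. Chromatin regulators had a pair in 8 of 71 genes (11.3%, 4.99 to 21.0%), or 22.2% of the 36 with peaks in both lists. KDM5A, the methyltransferase KMT2C (fold 3.85) and the Polycomb-associated ASXL1 (5.13, over 31 bases) were among them. SETD3, an actin methyltransferase, and KATNBL1, a katanin-like protein, were taken by their symbols and are counted among the 8.

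In signalling and growth, 12 of 62 growth factor signalling genes had a pair (19.4%, 10.4 to 31.4%), with IRS2, an insulin receptor substrate (fold 59, on the series), and PIK3C2A, a phosphoinositide kinase (7.52). In Notch and Wnt signalling 3 of 30 did: NOTCH2, the scaffold AXIN2 and the Wnt receptor FZD3. AXIN2 had a fold of 7.69 with a knockout p of 0.038, and FZD3 one of 43.6 over 31 bases, both on the series. Among p53 and cell cycle genes 9 of 40 had a pair. They included CCND1, the antiapoptotic BCL2L1 and MCL1 (6.72), and the p53 inhibitor MDM4 (5.13). BCL2L1 had 3 pairs, with folds of 17.9 (on the series), 1.36 and 3.54.

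In structure and traffic, 12 of 53 cytoskeletal and adhesion genes had a pair (22.6%, 12.3 to 36.2%), led by AHNAK2, AHNAK, VIM and AMOTL1. Among matrix genes and integrins 6 of 43 did. THBS1, thrombospondin, had a SiHa peak of 1976 bases over 270 knockout bases with a p of 1e-208 and a fold of 17.4, and the integrin subunit ITGA3 had a fold of 2.71. In vesicle traffic 15 of 96 did, with ARF6 and RAB10 first, and these 15 include SECISBP2 and SECISBP2L, selenoprotein synthesis factors taken by their symbols. Of 111 solute carrier genes 10 did, with the glutamine transporter SLC1A5 (12.4) and the glucose transporter SLC2A1 (41.0, on the series). SLC2A3 and LDHB were the other glycolysis genes, 3 of 10 in all. In LDHB the SiHa p was 0.033 and the knockout p 1.3e-14.

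Among the remaining lists, chaperones had a pair in 4 of 50 genes: HSP90AA1, HSP90AB1, the co-chaperone DNAJB1 (fold 23.3) and HSPA13 (10.9). Ubiquitin and proteasome genes had one in 10 of 65, with the proteasome ATPase PSMC3 (4.10) and the deubiquitinase USP10 (6.67). Interferon and antigen presentation genes had one in 4 of 20, with IFIT2 (7.95) and IFIT5 (10.3). ZNF genes had one in 23 of 240 (9.58%, 6.17 to 14.0%), led by ZNF830, whose 2 SiHa rows share 1 knockout peak. The 23 include ZNF224 and ZNF225-AS1, named as an antisense RNA and taken by its symbol, whose peaks lie at the same place. Lipid and sterol genes had one in 2 of 12, SQLE, where 1 base was common, and DHCR7. NORAD and SNHG16 were the 2 of 5 listed noncoding RNAs, and KRT19 the 1 of 8 in the squamous list, which also takes keratin-associated proteins.

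Positions along the gene were set beside those of other SiHa peaks, and the differences were not tested. In spans of named coding genes, introns included, 107 of 592 shared peaks (18.1%, 15.1 to 21.4%) ended within 1000 bases of the 3′ end of the gene, against 18.7% (17.8 to 19.6%) of 7760 others. Within 1000 bases of the 5′ end began 9.12% (6.93 to 11.7%) and 7.49% (6.91 to 8.10%). The median position was 82.8% of the span from the 5′ end in shared and 84.8% in other SiHa peaks. In the knockout list it was 83.6% in shared peaks and 76.9% in the others, with quartiles of 54.7 and 95.4% against 44.5 and 93.6%. Exons were not used here, so positions within the mature transcript were not measured.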

How the data were processed

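The 8 libraries form 4 groups of 2. Stranded mRNA kits were used, per the labels' protocols; FastQC 0.11.7 and the builds GRCh38 and hg38 are named in the submitters' processing notes. The sources used here do not give the aligner, peak caller, annotation or pooling of replicates. The authors deposited a p-value for each peak in both lists. In the knockout list the authors also deposited log10 of p, a log10 false discovery rate, and a ratio given as fold enrichment. Which list is the knockout's was read from its name; no label states it in words.

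From the SiHa list 1 repeated row and 3 rows off the chromosomes used were dropped, and from the knockout list 3 rows. Overlaps were computed in Python 3.11.15 with pandas 2.3.3 and scipy 1.17.1, and the overlap code was tested on simulated data against bedtools. The repeated series holds knockout peaks with a fold of at least 7.6 and −log10 p over fold of at most 0.252. Names came from RefSeq spans (GRCh38.p14) on the same strand, or of unknown strand: an identifier was named when its peaks touched 1 span alone, with 90% of their bases inside, and no other identifier lay there. Of 9045 identifiers 7200 were named. The span rule can still name a nested gene after its host.

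Named peaks were the first 10 by SiHa p, knockout p, fold, shared bases, identical blocks or number of shared peaks, all mitochondrial pairs, pairs at the edge of the rule and up to 4 genes of each of 23 lists. Others were named after their values were seen (VIM-AS1, GMFG, EPB41, PPP4C, and genes tied with the last of a rank). Members and lists were chosen with earlier results of these data known. Depth is unknown. Some items are not reported here.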

Additional observations from a re-analysis of the deposited data

How the results depend on the processing

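Neither replicates nor depth could be examined, since each list is 1 set of peaks for a population. No paired analysis was possible because the lists carry no value for a single replicate. For 9 results, 8 alternatives were tried. With at least 50% of both peaks shared there were 407 SiHa peaks, 409 knockout peaks, 396 groups and 389 genes, with medians of 174 shared bases, 211 bases of SiHa width and a SiHa −log10 p of 8.96. With −log10 p above 8 in both lists there were 321, 324, 304 and 298, medians of 180 shared bases, 360 bases, 55.2 and a fold of 15.8, and 31.8% with more than 1 block. With the SiHa threshold alone the medians were 163 shared bases, 359 bases, 42.3 and a fold of 9.83, and off the repeated series they were 300 bases, 26.9 and 7.98. These filters leave fewer peaks by construction. Either strand, whole spans, at least 50 shared bases and a false discovery rate of at most 0.05 kept all 9 results within 1.5 times the count or within the interval of the value. Counting each place once, an alternative chosen after seeing the data, gave 827 SiHa and 828 knockout places.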
